A study of Mus musculus with 12 samples.

Results

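The genes described here are 44 genes of the cell cycle and DNA replication, out of 27912 genes in the deposited gene table. They were taken by gene symbol, and all 44 were found. By function, 18 act in G1, at the G1/S transition or in replication, 22 act in G2 and mitosis, and 4 inhibit cyclin-dependent kinases (CDKs). The study asked what loss of CCR1, a chemokine receptor of monocytes and macrophages, does in mice with diet-induced fatty liver disease. Liver RNA was sequenced from 3 wild-type (WT) C57BL/6 mice and 3 CCR1-KO mice. All 6 were males that began the CL diet, which is rich in fat, cholesterol and cholate, at 8 weeks of age and ate it for 12 weeks. No chow-fed liver was compared, so both groups share the diet. The sources used here do not give how the CCR1-KO allele was made or whether the WT mice were littermates, so the deletion and the origin of the mice cannot be told apart. The other 6 samples of the series were not analysed here.

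In a dividing cell, cyclin D with CDK4 and cyclin E with CDK2 lift the block that retinoblastoma proteins place on E2F factors, and E2F targets such as the MCM helicase and the enzymes of nucleotide synthesis are then made for S phase. Later, FOXM1 and B-MYB, bound with the MuvB complex at CHR elements, switch on cyclin B, CDK1 and the genes of the spindle and kinetochore. Most hepatocytes of an adult liver rest outside the cycle and many are polyploid, so these transcripts are usually low there and also come from dividing immune, ductal and mesenchymal cells. Whole liver was sequenced, so fewer dividing cells and less RNA per dividing cell cannot be told apart.

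The libraries held 74699391 to 79154085 reads each, and 1 read was worth 0.0113 to 0.0167 CPM (reads scaled to library size). Values are listed throughout for WT 62, 63 and 64 and for CCR1-KO 65, 66 and 67, in that order. Log2 fold changes are CCR1-KO over WT, with the SE of the fit. A gene was called where edgeR's quasi-likelihood test gave a Benjamini-Hochberg adjusted p below 0.05 over the 17729 genes tested. Ccr1 itself (chr9:123962124-123968692, GRCm38, minus strand) had 100, 23 and 123 reads in WT and 11, 4 and 14 reads in CCR1-KO. The groups did not overlap, but the difference was not called (log2 fold change -2.72 ± 0.76, adjusted p = 0.075). An exact two-sided permutation test over the 6 libraries gave p = 0.1, the smallest that 3 against 3 allows. Which part of Ccr1 was deleted is not given, so the remaining reads do not check the labels further. The median log2 fold change over all genes tested was 0.0017. With raw library sizes in place of the scaling factors it was -0.30, so that members with small positive values turn negative on that scale.

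Most transcripts of mitosis had lower values in the CCR1-KO livers, and those of replication were split between lower, level and higher values. Of the 43 members tested, 8 fell and 1 rose, while 3.61% of all genes tested fell and 2.83% rose. The 8 that fell were the cyclin Ccnb2, the kinetochore gene Cenpf, the spindle gene Tpx2, the proliferation marker Mki67, the helicase genes Mcm2 and Mcm3 and the inhibitors Cdkn2c and Cdkn3. The 1 that rose was the thymidine kinase gene Tk1. CCR1-KO values lay wholly below WT values for 22 of the 43, against 17.4% of all genes, and wholly above for 2, against 15.2% of all genes. At an unadjusted p below 0.05, 21 were lower and 1 was higher, against 13.2% and 11.3% of all genes. DESeq2, run as an alternative, called 17 members lower and 1 higher. It made more calls in general, 8.21% lower and 6.48% higher of the 15984 genes to which it gave an adjusted p. On simulated data 68 of its 199 calls were false, against 5 of 95 for edgeR. The simulated counts were drawn with edgeR's own fitted dispersions, so that comparison is not neutral between the tools. DESeq2 calls are therefore given below beside the main test and not as support for it. None of the 9 calls held without each of the 6 libraries in turn: 6 passed only when CCR1-KO 65 was left out, and 3 passed without 2 of the 6 libraries. The filter kept 34 members with every CCR1-KO library above its minimum and 9 through fewer CCR1-KO libraries. Of the members called, Cenpf and Cdkn3 were among the 9, each with 1 CCR1-KO library above the minimum. The phosphatase gene Cdc25c, with 19, 4 and 20 reads in WT and 5, 2 and 0 reads in CCR1-KO, was not tested.

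**Figure D1:**
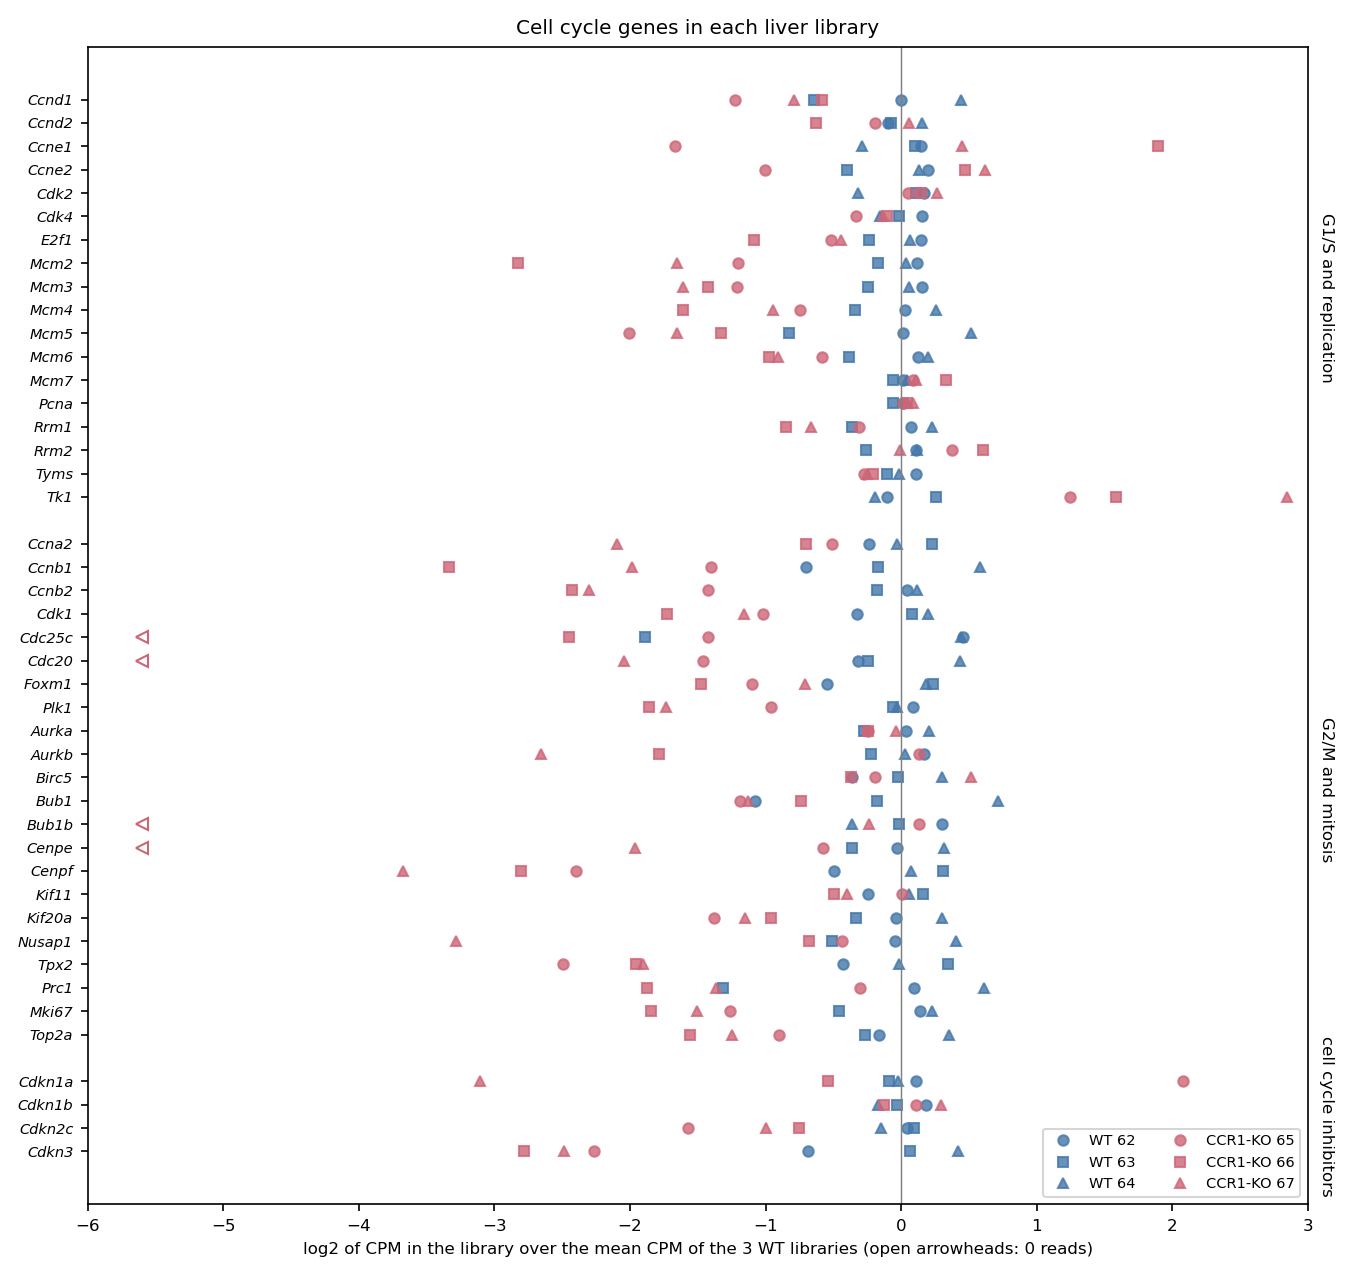
Each row is 1 of the 44 genes, grouped by class, and each point is 1 library, placed on the x axis at its log2 CPM relative to the WT mean of that gene. Open arrowheads mark libraries with 0 reads; most G2/M rows have all 3 CCR1-KO points left of 0, while many G1/S rows have both groups mixed.

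The start-site sequences differ between the classes in ways the choice of genes by function did not use, and a few are shown for that reason. RefSeq promoters (GRCm38.p6, 250 bases before to 50 after the start) were matched to 34 members and to 14367 genes in all. On both strands, 3 motifs were searched. The CHR, or cell cycle genes homology region, was TTTGAA or the related form TTTAAA. The box bound by NF-Y was CCAAT. The E2F site was TTCCCGC, or any of the other spellings TTCGCGC, next the spelling TTGGCGC, and lastly the spelling TTGCCGC. E2F matches can overlap each other and the NF-Y box. The printed stretches run 5′ to 3′ on the gene's strand over at most 200 bases before the start, with motif matches in capitals. The first 5 belong to 4 mitotic genes and Cdkn3.

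Ccnb2 (chr9:70421555-70421754, minus strand): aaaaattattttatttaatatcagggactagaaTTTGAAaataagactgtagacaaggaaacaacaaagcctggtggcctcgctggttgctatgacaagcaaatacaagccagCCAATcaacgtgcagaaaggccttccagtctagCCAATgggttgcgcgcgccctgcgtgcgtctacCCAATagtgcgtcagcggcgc
Mki67 (chr7:135716380-135716579, minus strand): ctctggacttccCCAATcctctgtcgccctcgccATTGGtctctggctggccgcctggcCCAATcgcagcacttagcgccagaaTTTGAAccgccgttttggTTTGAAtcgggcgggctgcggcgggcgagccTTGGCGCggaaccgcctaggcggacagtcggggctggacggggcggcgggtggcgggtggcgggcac
Cdk1 (chr10:69352939-69353112, minus strand): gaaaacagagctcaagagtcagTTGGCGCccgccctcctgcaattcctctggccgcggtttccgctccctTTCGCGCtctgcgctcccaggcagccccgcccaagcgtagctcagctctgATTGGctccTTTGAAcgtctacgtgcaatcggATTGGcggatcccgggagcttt
Cenpf (chr1:189688087-189688286, minus strand): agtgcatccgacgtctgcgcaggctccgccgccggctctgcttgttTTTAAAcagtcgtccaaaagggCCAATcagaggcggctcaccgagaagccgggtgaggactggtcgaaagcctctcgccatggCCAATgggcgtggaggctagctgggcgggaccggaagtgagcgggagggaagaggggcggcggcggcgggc
Cdkn3 (chr14:46760341-46760540, plus strand): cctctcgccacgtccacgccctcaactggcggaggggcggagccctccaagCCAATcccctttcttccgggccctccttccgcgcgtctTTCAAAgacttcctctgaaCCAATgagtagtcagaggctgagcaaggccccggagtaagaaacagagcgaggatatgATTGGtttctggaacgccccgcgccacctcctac

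The next 4 belong to the replication genes Mcm2 and Mcm3, which fell, Mcm6, which was not called, and Tk1, which rose.

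Mcm2 (chr6:88898781-88898980, minus strand): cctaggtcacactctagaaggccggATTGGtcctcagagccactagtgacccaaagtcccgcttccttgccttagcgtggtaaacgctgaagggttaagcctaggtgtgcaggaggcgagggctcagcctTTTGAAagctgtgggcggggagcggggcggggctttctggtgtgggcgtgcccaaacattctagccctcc
Mcm3 (chr1:20820313-20820512, minus strand): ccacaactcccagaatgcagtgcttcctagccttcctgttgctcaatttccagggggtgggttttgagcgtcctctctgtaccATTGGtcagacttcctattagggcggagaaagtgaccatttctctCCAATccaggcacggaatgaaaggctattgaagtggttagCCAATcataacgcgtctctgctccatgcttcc
Mcm6 (chr1:128359706-128359905, minus strand): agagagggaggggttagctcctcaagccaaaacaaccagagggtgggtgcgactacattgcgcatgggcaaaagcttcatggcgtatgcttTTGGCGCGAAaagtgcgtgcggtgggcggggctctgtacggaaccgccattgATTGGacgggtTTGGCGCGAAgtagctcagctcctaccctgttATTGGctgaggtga
Tk1 (chr11:117826093-117826214, minus strand): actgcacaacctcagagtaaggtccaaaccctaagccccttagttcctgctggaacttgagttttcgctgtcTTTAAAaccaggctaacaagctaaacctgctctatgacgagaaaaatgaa

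Each of the 5 stretches of the first group holds a CHR together with at least 2 NF-Y boxes. In Ccnb2 the NF-Y boxes begin 87, 54 and 21 bases before the start. Mcm2 holds a CHR and an NF-Y box, and Mcm3 holds NF-Y boxes that begin 117, 72 and 32 bases before the start. Neither of these stretches holds an E2F match. Past the printed stretch, the window of Mcm3 holds E2F matches that begin at bases 20, 40 and 43 counted from the start. That of Mcm2 holds none. Besides NF-Y boxes, Mcm6 holds E2F matches in a pair of identical runs, TTGGCGCGAA, each an overlap of 2 spellings on opposite strands. Tk1 holds 1 CHR and neither of the other motifs in its window. Over the whole windows, 14 of the 16 G2/M promoters held a CHR (87.5%), against 5 of 14 G1/S promoters (35.7%) and 21.4% of all promoters. The NF-Y box stood in 87.5% of G2/M, 64.3% of G1/S and 37.8% of all promoters. The E2F site was in 18.8% of G2/M, 50% of G1/S and 14.6% of all promoters. Both CHR and NF-Y box were found in 13 of 16 G2/M promoters, 3 of 14 G1/S promoters and 8.48% of all. These are matches of letters, with no binding measured.

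**Figure D2:**
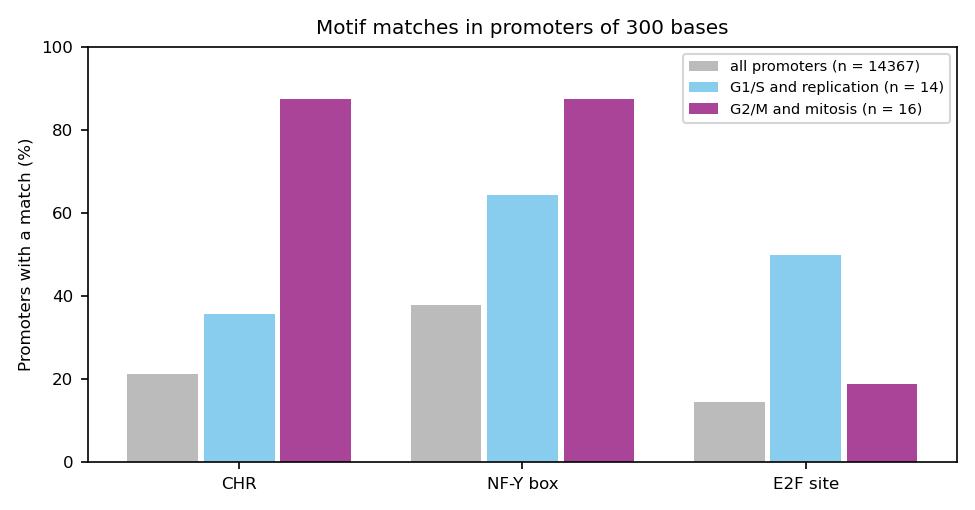
Bars give the percentage of promoters that hold a CHR, an NF-Y box or an E2F site, for all 14367 promoters, the 14 of G1/S genes and the 16 of G2/M genes. CHR is at 87.5% in the G2/M bar and 35.7% in the G1/S bar, while E2F is at 18.8% and 50%.

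At the entry to the cycle, none of the 6 G1 cyclin and CDK genes was called by edgeR (1 was lower at an unadjusted p below 0.05, and 1 was called by DESeq2). Ccnd1, cyclin D1, was at 26.3, 16.8 and 35.7 CPM in WT and 11.2, 17.5 and 15.2 CPM in CCR1-KO. Only CCR1-KO 66 reached into the WT range, just above WT 63, and the difference was -0.84 ± 0.28 (adjusted p = 0.116). DESeq2 called it (adjusted p = 0.023), as did edgeR with raw library sizes (adjusted p = 0.045). Its partner Cdk4 had the highest level of all members per length, a mean of 13.4 FPKM (fragments scaled to gene length and library size) in WT. It was at 47.9, 42.5 and 38.6 CPM in WT and 34.2, 40.0 and 39.3 CPM in CCR1-KO, with groups that overlapped (-0.19, adjusted p = 0.409). Ccnd2 (cyclin D2) and Cdk2 were as near to WT, at log2 fold changes of -0.23 and 0.15.

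The cyclin E genes, which partner CDK2, varied most among the CCR1-KO mice of this group. Ccne1 was at 0.923, 0.892 and 0.682 CPM in WT and 0.263, 3.09 and 1.14 CPM in CCR1-KO. CCR1-KO 66 was the highest of the 6 libraries and CCR1-KO 65 the lowest, an 11.8-fold range within 1 genotype. The fold change of 0.84 ± 0.73 (adjusted p = 0.522) became -0.26 without CCR1-KO 66. Ccne2 was at 2.02, 1.33 and 1.92 CPM in WT and 0.875, 2.44 and 2.69 CPM in CCR1-KO, with CCR1-KO 65 again lowest (0.18, adjusted p = 0.832). E2f1, the activating E2F, was at 5.43, 4.18 and 5.14 CPM in WT and 3.44, 2.31 and 3.61 CPM in CCR1-KO. Its groups did not overlap, but the difference was not called (-0.65 ± 0.24, adjusted p = 0.146).

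The MCM genes encode the 6 subunits of the ring that unwinds DNA at replication forks. Of the 6, 5 were lower in every CCR1-KO library than in any WT library, against 17.4% of all genes. Of these 5, Mcm2 and Mcm3 fell by the test, against 3.61% of all genes. Mcm2 (chr6:88883474-88898780, minus strand) was at 5.42, 4.44 and 5.13 CPM in WT and 2.16, 0.705 and 1.59 CPM in CCR1-KO. The difference of -1.74 ± 0.38 had an adjusted p of 0.040, which ranged from 0.0147 to 0.134 over the fits without 1 library; the call was lost without WT 62, 63 or 64 or CCR1-KO 67, and also with no filter on low counts (adjusted p = 0.056). Mcm3 (chr1:20802968-20820312, minus strand) was at 6.01, 4.56 and 5.61 CPM in WT and a narrow 2.33, 2.01 and 1.77 CPM in CCR1-KO. Its difference was -1.40 ± 0.22 (adjusted p = 0.016, from 0.0099 to 0.074 without 1 library), lost without WT 62, 63 or 64 or CCR1-KO 66.

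The remaining MCM genes were not called by edgeR. Mcm5 was at 2.28, 1.28 and 3.24 CPM in WT and 0.563, 0.904 and 0.719 CPM in CCR1-KO (-1.64 ± 0.40, adjusted p = 0.054). Mcm4 had a log2 fold change of -1.06 (adjusted p = 0.070) and Mcm6 one of -0.81 (adjusted p = 0.085). DESeq2 called both of them and Mcm5. Mcm7, which sits in the same ring, was at 10.7, 10.2 and 10.9 CPM in WT and 11.3, 13.3 and 11.5 CPM in CCR1-KO. All 3 CCR1-KO values lay above WT, by 0.18 (adjusted p = 0.440), and the value turned to -0.12 with raw library sizes. Mcm7 thus stood apart from the other 5 subunits in direction on the main scale, a difference between genes that was not tested. Summed over the 6 genes, the MCM level was 34.8, 28.1 and 36.5 CPM in WT and 22.6, 21.1 and 20.7 CPM in CCR1-KO, means of 33.1 ± 4.43 and 21.5 ± 0.969 CPM (SD, n = 3 each).

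Of the sliding clamp and the 4 genes of nucleotide synthesis, none fell and 1 rose, against 3.61% and 2.83% of all genes. Pcna, the clamp that holds DNA polymerase on its template, was nearly level: 20.6, 19.5 and 21 CPM in WT and 20.5, 21 and 21.7 CPM in CCR1-KO (0.05 ± 0.10, adjusted p = 0.825). The ribonucleotide reductase genes pointed in opposite directions without a call. Rrm1, the large subunit, was at 10.1, 7.43 and 11.2 CPM in WT and 7.71, 5.32 and 6.02 CPM in CCR1-KO (-0.59, adjusted p = 0.148). Rrm2, the small subunit that limits the enzyme in S phase, was at 3.39, 2.63 and 3.42 CPM in WT and 4.09, 4.80 and 3.13 CPM in CCR1-KO (0.35, adjusted p = 0.411). Tyms, thymidylate synthase, was lower in every CCR1-KO library by a small margin, with a difference of -0.24 (adjusted p = 0.415).

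Tk1, cytosolic thymidine kinase, which salvages thymidine for DNA synthesis, was the 1 member that rose. It lies at chr11:117815526-117826092, minus strand and was at 8.12, 10.4 and 7.65 CPM in WT and 20.7, 26.2 and 62.7 CPM in CCR1-KO. Every CCR1-KO library was above every WT library, and CCR1-KO 67 was 3.03 times as high as CCR1-KO 65. The mean was 4.19-fold that of WT, and the fitted difference was 2.06 ± 0.40 (adjusted p = 0.028, from 0.0083 to 0.123 without 1 library). The call was lost without WT 62, 63 or 64 or CCR1-KO 66. On the opposite strand, the whole of Tk1 lies within the model Gm20708, and the 5′ start of Tk1 shares 169 bases with Afmid, which encodes a liver enzyme of tryptophan breakdown. Afmid was at 58.0, 74.4 and 43 CPM in WT and 93.2, 146.9 and 170.2 CPM in CCR1-KO (1.23 ± 0.27, adjusted p = 0.039). Gm20708 was at 32.6, 22.2 and 12.7 CPM in WT and 28.7, 40.0 and 67.3 CPM in CCR1-KO (1.01 ± 0.39, adjusted p = 0.166). The sources used here do not state if strand was used in counting. Reads of Tk1 and of these neighbours therefore cannot be told apart, and the value of Tk1 is uncertain.

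**Figure D3:**
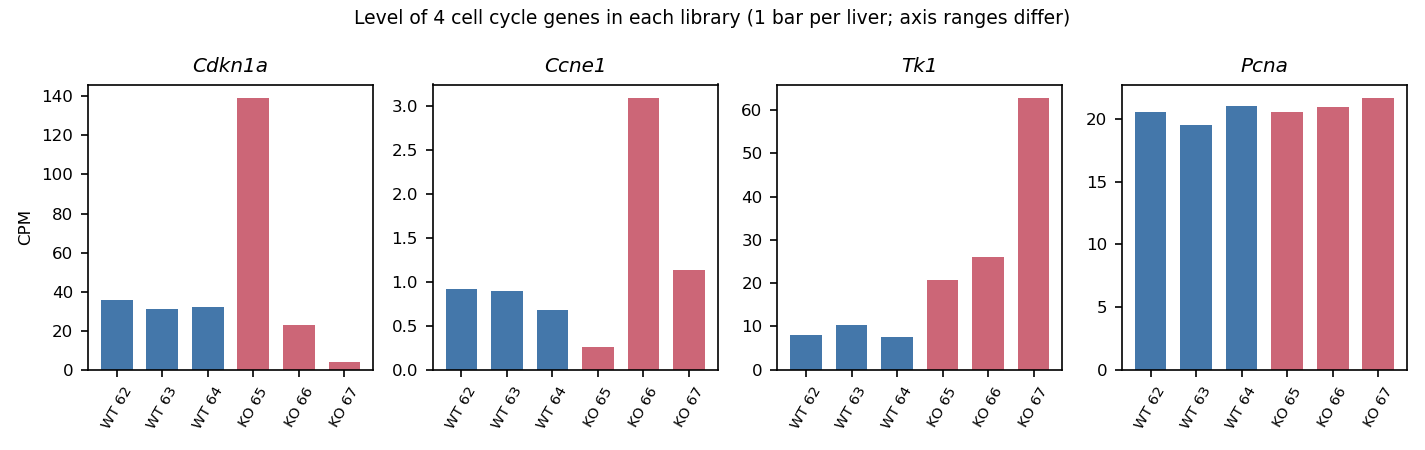
Bars show the CPM of Cdkn1a, Ccne1, Tk1 and Pcna in each of the 6 libraries, each panel with its own linear axis from 0. Pcna is level, Tk1 is higher in all 3 CCR1-KO libraries, and Cdkn1a and Ccne1 are each highest in a single CCR1-KO library (65 and 66).

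Of the genes for entry into and exit from mitosis, all 6 tested were lower in every CCR1-KO library than in any WT library. Over all genes, 17.4% lay lower in this way. The median log2 fold change of the 6 was -1.62, and 1 of the 6 fell by the test (4 by DESeq2). Over all genes, 3.61% fell by the test and 8.21% by DESeq2. Ccnb2, cyclin B2, which activates CDK1 (chr9:70407692-70421547, minus strand), was at 1.87, 1.60 and 1.97 CPM in WT and 0.675, 0.337 and 0.368 CPM in CCR1-KO. The highest CCR1-KO value was well under the lowest WT value (-1.97 ± 0.37, adjusted p = 0.025). That adjusted p ranged from 0.0080 to 0.104 without 1 library, and the call held only without CCR1-KO 65. A processed copy, Ccnb2-ps, held 347 reads over the 6 libraries, and how reads that match both were assigned is not given. Ccnb1, cyclin B1, was at 0.571, 0.824 and 1.39 CPM in WT and 0.350, 0.0919 and 0.234 CPM in CCR1-KO (-2.02 ± 0.59, adjusted p = 0.086).

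Cdk1, the kinase that cyclin B drives, was at 1.25, 1.66 and 1.80 CPM in WT and 0.775, 0.475 and 0.702 CPM in CCR1-KO. The gap between groups was clear but the adjusted p was 0.065 (-1.27 ± 0.33). Ccna2, cyclin A2, which acts in S phase and G2, was lower with a smaller difference of -0.95 (adjusted p = 0.224). Cdc20, which activates the anaphase-promoting complex at mitotic exit, was at 0.996, 1.05 and 1.68 CPM in WT and 0.450, 0 and 0.301 CPM in CCR1-KO (-2.29 ± 0.93, adjusted p = 0.182). Its 0 in CCR1-KO 66 stood beside 82 to 148 reads in each WT library. Foxm1, the transcription factor of the G2/M programme, was at 0.789, 1.36 and 1.31 CPM in WT and 0.538, 0.414 and 0.702 CPM in CCR1-KO (-1.06, adjusted p = 0.144).

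The mitotic kinases and the spindle checkpoint had a median log2 fold change of -0.77, with none of 6 called by edgeR or by DESeq2 (1 was lower at an unadjusted p below 0.05). Plk1, the polo kinase, had the largest difference of the 6, at 0.826, 0.745 and 0.761 CPM in WT and 0.400, 0.214 and 0.234 CPM in CCR1-KO (-1.45 ± 0.43, adjusted p = 0.089). Aurka, the kinase of the spindle poles, was at 3.13, 2.53 and 3.52 CPM in WT and 2.59, 2.59 and 2.98 CPM in CCR1-KO, with groups that overlapped (-0.17, adjusted p = 0.685). Aurkb and Birc5 encode a kinase and the survivin subunit of the same chromosomal passenger complex. Aurkb was at 0.474, 0.361 and 0.432 CPM in WT and 0.463, 0.123 and 0.0669 CPM in CCR1-KO, so that CCR1-KO 65 alone was at the WT level (-0.93, adjusted p = 0.473). Birc5 was at 1.20, 1.52 and 1.91 CPM in WT and 1.35, 1.20 and 2.21 CPM in CCR1-KO (0.03, adjusted p = 0.965), the only G2/M gene tested with a positive value, and it turned to -0.31 with raw library sizes. The checkpoint kinase gene Bub1 had a difference of -1.0 (adjusted p = 0.406). Its relative Bub1b was at 0.971, 0.779 and 0.614 CPM in WT and 0.863, 0 and 0.669 CPM in CCR1-KO (-0.62, adjusted p = 0.756). CCR1-KO 66 was the only library of Bub1b outside the WT range.

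Most calls of the mitotic class, 3 of 4, came from the 9 genes of the kinetochore, the spindle and mitotic chromosomes. All 9 had negative values, and 3.61% of all genes fell by the same test. Cenpf, a large kinetochore protein (chr1:189640606-189688086, minus strand), was at 0.607, 1.06 and 0.898 CPM in WT and 0.163, 0.123 and 0.0669 CPM in CCR1-KO. It had the largest fitted fall among the members called (-2.83 ± 0.52, adjusted p = 0.024, from 0.0177 to 0.112 without 1 library). Cenpf passed the filter through its WT libraries, with only 1 CCR1-KO library above the minimum. Tpx2, which nucleates spindle microtubules and activates Aurora A (chr2:152847964-152895321, plus strand), was at 0.838, 1.43 and 1.11 CPM in WT and 0.200, 0.291 and 0.301 CPM in CCR1-KO (-2.1 ± 0.41, adjusted p = 0.028, from 0.032 to 0.127). Mki67, the Ki-67 protein that coats mitotic chromosomes and is the usual marker of cycling cells (chr7:135689784-135716361, minus strand), was at 5.09, 3.35 and 5.41 CPM in WT and 1.93, 1.29 and 1.62 CPM in CCR1-KO (-1.52 ± 0.28, adjusted p = 0.024, from 0.0161 to 0.102). All 3 calls held only without CCR1-KO 65.

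Further genes of this group were lower without a call. Top2a, the topoisomerase that untangles sister chromatids, was at 2.09, 1.94 and 2.99 CPM in WT and 1.25, 0.797 and 0.987 CPM in CCR1-KO (-1.21 ± 0.31, adjusted p = 0.060). Kif20a, a kinesin of cytokinesis, was at 1.77, 1.45 and 2.24 CPM in WT and 0.700, 0.935 and 0.820 CPM in CCR1-KO (-1.15 ± 0.30, adjusted p = 0.065). In both genes the 3 CCR1-KO livers lay close together below all WT livers, and DESeq2 called both. Cenpe, the kinetochore motor, had 42, 36 and 57 reads in WT and 28, 0 and 8 reads in CCR1-KO (-1.66 ± 0.99, adjusted p = 0.344). Nusap1, a spindle protein, was at 1.26, 0.915 and 1.73 CPM in WT and 0.963, 0.812 and 0.134 CPM in CCR1-KO (-1.02, adjusted p = 0.363), with CCR1-KO 67 far below the rest. Prc1, which bundles the central spindle, had a difference of -1.02 (adjusted p = 0.338), and its model overlaps Rccd1 on the opposite strand by 21810 bases. Kif11, the motor that separates spindle poles, was the nearest to WT, at 0.911, 1.21 and 1.13 CPM in WT and 1.09, 0.766 and 0.820 CPM in CCR1-KO (-0.28, adjusted p = 0.639).

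**Figure D4:**
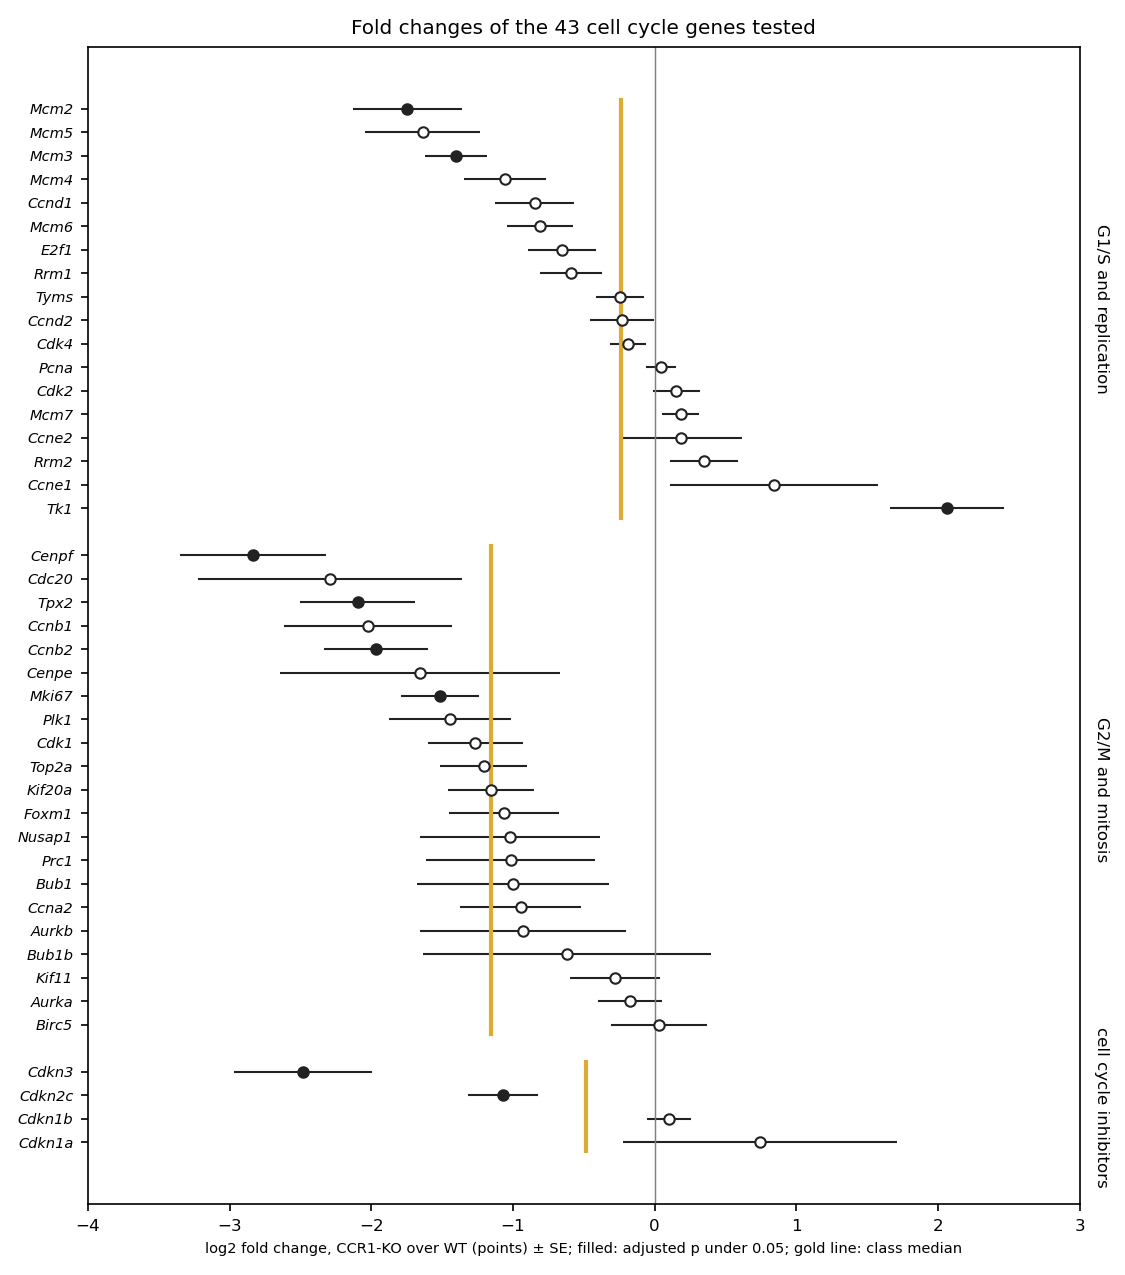
Each point is the log2 fold change, CCR1-KO over WT, of 1 member with its SE as a bar, ordered within the 3 classes, and members past an adjusted p of 0.05 are marked. The G2/M values centre on -1.15 and the G1/S values on -0.24, with Tk1 at 2.06 as the outlying positive value.

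The CDK inhibitors split into 2 that fell, against 3.61% of all genes, and 2 that were not called. Cdkn2c, p18, which blocks CDK4 and CDK6 (chr4:109660876-109667189, minus strand), was at 6.44, 6.66 and 5.64 CPM in WT and 2.1, 3.71 and 3.13 CPM in CCR1-KO. The groups were well separated (-1.07 ± 0.25, adjusted p = 0.045, from 0.035 to 0.152 without 1 library), but with no filter on low counts the adjusted p was 0.061. Cdkn3, a phosphatase that removes the activating phosphate from CDKs and is itself made in G2 and M (chr14:46760541-46771669, plus strand), was at 0.522, 0.881 and 1.13 CPM in WT and 0.175, 0.123 and 0.151 CPM in CCR1-KO (-2.48 ± 0.49, adjusted p = 0.029, from 0.029 to 0.124). Both calls held only without CCR1-KO 65, and Cdkn3 passed the filter with only 1 CCR1-KO library above the minimum. Cdkn3 shares the CHR and NF-Y boxes of the mitotic promoters printed above. So does Cdkn1b, which was not called, while the window of Cdkn2c, which fell, held neither motif. The window of Cdkn2c held 1 E2F match. Its start lay 433 bases from the 5′ end of the counted model, so it may not be the promoter of that model.

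Cdkn1a, p21, the main p53-induced inhibitor, was at 35.5, 31.0 and 32.4 CPM in WT and 139, 22.7 and 3.83 CPM in CCR1-KO. The WT mice differed by at most 1.14-fold and the CCR1-KO mice by 36.3-fold, with CCR1-KO 65 far above and CCR1-KO 67 far below every WT mouse. The fitted value of 0.75 ± 0.97 (adjusted p = 0.684) became -1.31 without CCR1-KO 65 (adjusted p = 0.204). The related Cdkn1b, p27, was at 19.7, 17.0 and 15.4 CPM in WT and 18.8, 15.9 and 21.3 CPM in CCR1-KO (0.10, adjusted p = 0.726), so the wide spread was seen in 1 of these inhibitors and not the other.

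Set side by side, 2 of the 18 G1/S genes fell (11.1%, against 3.61% of all genes) and 1 rose, against 2.83% of all genes. Of the 18, 11 had negative values, and the median log2 fold change was -0.24. Of the 21 G2/M genes tested, 4 fell and none rose, 20 had negative values, and the median was -1.15 (-1.19 over all 22 with no filter on low counts). Without any 1 WT library, or without CCR1-KO 66 or 67, no G2/M gene was called, and without CCR1-KO 65, 8 were. The 4 inhibitors had a median of -0.48. CCR1-KO values lay below all WT values without overlap for 38.9% of G1/S and 61.9% of G2/M genes, against 17.4% of all genes. With raw library sizes, 15 of 18 G1/S and 21 of 21 G2/M values were negative, with medians of -0.54 and -1.47 where that of all genes was -0.30. Summed CPM of the G1/S genes averaged 174 ± 15.3 in WT libraries and 171 ± 27.2 in CCR1-KO libraries (SD, n = 3 each), a sum that Cdk4, Tk1, Ccnd1 and Pcna dominate. The higher Tk1, with a mean 4.19-fold that of WT, offset lower sums of the G1 cyclins and CDKs, the helicase and E2f1. Reads of Tk1 cannot be told apart from those of its neighbours, so the near-equal sums do not show that the class was level. Summed CPM of the G2/M genes was 28.1, 26.8 and 35.4 in WT and 17.3, 11.9 and 14.3 in CCR1-KO, a ratio of means of 0.48. By role, the ratio was 0.353 for mitotic entry and exit, 0.41 for kinetochore, spindle and chromosomes, 0.635 for E2f1, 0.65 for the helicase, 0.794 for kinases and checkpoint and 0.827 for G1 cyclins and CDKs. It was above 1 for the clamp and nucleotide synthesis, at 1.53, where Tk1 holds much of the sum, and for the inhibitors, at 1.34, where Cdkn1a of CCR1-KO 65 does. The difference between classes was not tested, since genes are not replicates.

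**Figure D5:**
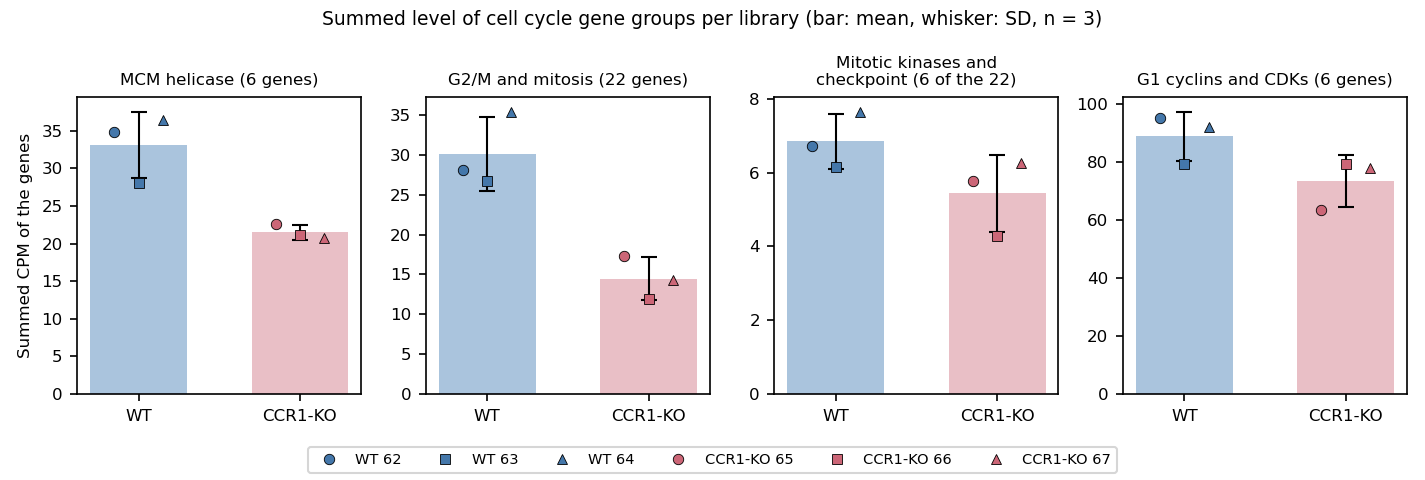
Bars show the summed CPM of the MCM helicase genes, the G2/M genes, the mitotic kinases and checkpoint, and the G1 cyclins and CDKs, as the mean of 3 libraries per genotype with SD, and points show single libraries; each linear axis starts at 0. The groups do not overlap for the helicase (28.1 to 36.5 in WT, 20.7 to 22.6 in CCR1-KO) or for G2/M (26.8 to 35.4 and 11.9 to 17.3).

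The mitotic genes were also the least abundant. Per length, 20 of the 22 G2/M genes had a WT mean below 1 FPKM, against 7 of 18 G1/S genes and 1 of 4 inhibitors. Low reads limit single libraries: 3 members (Cdc20, Bub1b and Cenpe) had 0 reads in CCR1-KO 66 and 1 (Cdc25c) in CCR1-KO 67, where a count of 0 allows up to 0.046 and 0.0502 CPM by counting error alone. Zeros beside at least 30 reads in each of the other 5 libraries occurred over the whole table for 11 genes in WT 62, 3 in WT 64, 5 in CCR1-KO 66 and 8 in CCR1-KO 67, and 1 of the 5 was Bub1b. Among the CCR1-KO mice, 65 had the highest value for 16 of the 22 G2/M genes and 66 the lowest for 13. Among WT mice, 64 was highest for 13 of the 22.

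Other genes of the same pathways were compared in the same fit. Of 37 further replication genes tested, 2 fell (5.41%, near the 3.61% of all genes) and none rose, with 3 and 2 called by DESeq2, and the median log2 fold change was -0.32. Gins2, a subunit of the GINS complex that activates the MCM ring, was at 3.44, 2.46 and 3.70 CPM in WT and 0.425, 0.199 and 0.502 CPM in CCR1-KO (-3.09 ± 0.40, adjusted p = 0.0098). Lig1, the ligase that joins Okazaki fragments, was at 5.03, 3.26 and 3.26 CPM in WT and 0.838, 0.935 and 1.56 CPM in CCR1-KO (-1.80 ± 0.33, adjusted p = 0.025). Both lay lower in every CCR1-KO library than in any WT library.

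Of 46 further mitosis genes tested, 43 had negative values and the median was -0.89, while 1 fell and 1 rose by the test, 2.17% each and no more than the 3.61% and 2.83% of all genes (7 and 1 by DESeq2). Hmmr, a spindle-binding protein, had 69, 80 and 119 reads in WT and 0 reads in each CCR1-KO library (adjusted p = 0.0098). That is at least 70.8-fold lower against 3 counts over the group, a bound that covers counting error only. Hmmr passed the filter through its WT libraries alone. Ccnf, cyclin F, a ubiquitin ligase subunit that marks RRM2 and other proteins for destruction in G2, rose from 16.6, 17.5 and 12.2 CPM to 36.5, 30.3 and 28.0 CPM (1.04 ± 0.17, adjusted p = 0.019). Of 10 further CDK inhibitor and pocket protein genes tested, none was called by edgeR (1 was lower at an unadjusted p below 0.05, and 1 was called by DESeq2). Of 17 p53 target genes other than Cdkn1a, 1 rose, against 2.83% of all genes, and DESeq2 called 2 higher, against 6.48%. Of the 17, 10 had negative values, and the median log2 fold change was -0.085. The 1 that rose by edgeR, Trp53inp1, was at 64.6, 66.9 and 59.2 CPM in WT and 224, 243 and 163 CPM in CCR1-KO (1.72 ± 0.17, adjusted p = 0.0047). CCR1-KO 65, the mouse with the high Cdkn1a, had the highest CCR1-KO value for 14 of the 17. The summed CPM of the 17 was highest in CCR1-KO 67 instead, at 813, 755 and 865 CPM for CCR1-KO 65, 66 and 67. In WT 62, 63 and 64 the sum was 418, 498 and 617 CPM, below every CCR1-KO library, a difference that was not tested. CCR1-KO 65 was also highest for 10 of 10 macrophage, 7 of 9 T and NK cell and 6 of 8 endothelial markers. The count is thus not particular to p53 targets, and its share over all genes was not computed.

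Markers of other liver cells also differed between the same libraries, and their part in the results above was not tested. For the calls below, 3.61% of all genes fell and 2.83% rose. Summed CPM of 9 stellate cell markers was 379 to 817 in WT and 191 to 213 in CCR1-KO; 5 fell, led by Col3a1, at 89.7, 111 and 313 CPM in WT and 20.9, 12.8 and 14.7 CPM in CCR1-KO. Of the bile duct markers, summing to 119 to 191 CPM in WT and 42.4 to 49.5 CPM in CCR1-KO, 1 of 6 tested fell (Spp1), with 2 called by DESeq2. All 6 had negative values, and 4 lay lower in every CCR1-KO library than in any WT library, against 17.4% of all genes. Spp1 alone held most of these sums, at 134, 111 and 180 CPM in WT and 43.8, 37.1 and 44.5 CPM in CCR1-KO. Of 10 macrophage markers, Itgax and Trem2 fell. All 10 together summed to 174.5 to 230 CPM in WT and 104 to 246 CPM in CCR1-KO, where CCR1-KO 65 was the highest CCR1-KO library for 10 of 10. Endothelial markers (1 of 8 fell, Plvap) summed to 163 to 219 CPM in WT and 130 to 184 CPM in CCR1-KO. T and NK cell markers were at 2.53 to 5.61 CPM in WT and 3.65 to 6.28 CPM in CCR1-KO, with Cd3d and Ncr1 at 0 in at least 1 library. Of the 9 tested, 1 rose (Cd4), while the other 8 had negative values, and the median log2 fold change was -0.35. B and plasma cell markers were at 6.95 to 13.6 and 4.67 to 9.46 CPM, neutrophil markers at 3.90 to 5.04 and 2.14 to 4.29 CPM with 6 of 7 at 0 in at least 1 library, and erythroid markers at 228 to 364 and 211 to 464 CPM, in WT and CCR1-KO. None of these 3 lists held a gene called by edgeR. Hepatocyte markers, which define the labelled tissue, summed to 74951 to 89660 CPM in WT and 78549 to 99274 CPM in CCR1-KO, and 5 of 10 rose. Immediate early and stress genes, 6 in number, summed to 131.5 to 674 CPM in WT and 765 to 1037.5 CPM in CCR1-KO, with none called (1, Egr1, was higher at an unadjusted p below 0.05).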

How the data were processed

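Liver RNA was selected with oligo(dT) from total RNA before sequencing, per the labels' protocols. The tools named, without roles, in the submitters' processing notes are cutadapt 1.9, HISAT2 2.2.1 and StringTie 2.1.6 besides DESeq2 and edgeR. For every gene the table holds counts and FPKM of the 6 libraries, and coordinates, per the file headers. The counts deposited by the authors are whole numbers that were not normalized; the deposited FPKM values followed the counts by 1 factor per library (SD of the log2 ratio at most 0.00097 over 3308 genes). The genome build in the notes is GRCh38, a human one, yet 27839 of 27912 identifiers are mouse genes of GENCODE M21 (GRCm38) and 86.8% of these, with 42 of the 44 members, had the same position, so coordinates are given as GRCm38. Of the members, 16 overlap another model on the opposite strand, and Tk1 is the 1 of them that was called.

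Members and gene lists were chosen with earlier results of these data known. Groups came from titles and genotype labels. The main test was edgeR 4.0.16 (R 4.3.3; glmQLFit, glmQLFTest) on the counts, with filterByExpr (minimum count 10, minimum total 15), TMM factors (1.06, 1.12 and 1.17 for WT, 1.06, 0.874 and 0.779 for CCR1-KO) and Benjamini-Hochberg adjustment over 17729 genes. CPM values use these factors. Alternatives were DESeq2 1.42.0, DESeq2 size factors in edgeR, raw library sizes, no filter, limma 3.58.1 on log2(FPKM + 0.5) and log2(FPKM + 0.1) for genes of at least 0.5 FPKM in 3 libraries, and leaving out each library. Scripts were tested on simulated data. Replicate pairs differed by more than sampling noise (chi-square per degree of freedom at least 68.7). Replicates are animals numbered in the titles; whether libraries share a preparation is not given, so p-values measure only the spread between these samples. Floors cover counting error only. All members were named, as was Ccr1; of further pathway lists the genes called; of cell marker lists up to 4 of smallest p; and Egr1 was chosen after its values were seen.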

Additional observations from a re-analysis of the deposited data

How the results depend on the processing

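Over all genes 1141 were called, 735 with no filter on low counts and 2347 by DESeq2, and from 102 to 2419 when 1 library was left out, the highest count being the one without CCR1-KO 65 and the lowest the one without WT 63. Of called genes 43.9% were higher, 20.4% with raw library sizes, and 17.0% and 18.3% by limma with pseudocounts of 0.5 and 0.1. The 3 calls among G1/S genes became 5 with raw library sizes and 7 by DESeq2, and 0 to 4 without 1 library. The 4 among G2/M genes became 9 by DESeq2 and 2 by limma with either pseudocount, of only 3 G2/M genes that passed its filter, and 0 to 8 without 1 library. The 2 among inhibitors became 1 with no filter, 1 by limma with either pseudocount, and 0 to 2 without 1 library. Without WT 62, 63 or 64, 0 members were called by edgeR, while at an unadjusted p below 0.05, 18, 20 and 16 were lower and 1 was higher in each. Ccr1 passed with raw library sizes (-3.05) and by DESeq2 (-2.74). Signs turned for members that were not called. With raw library sizes, Ccne2 was -0.18, Cdk2 -0.15, Mcm7 -0.12, Pcna -0.26, Birc5 -0.31 and Cdkn1b -0.20. By limma with pseudocounts of 0.5 and 0.1, Ccne2 was -0.10 and -0.19, Cdk2 -0.11 and -0.14, Mcm7 -0.10 and -0.12, Pcna -0.25 and -0.26, Cdkn1a -0.61 and -0.78, and Cdkn1b -0.18 and -0.20. Without 1 library, Ccne1 ran from -0.26 (without CCR1-KO 66) to 1.35, Cdkn1a from -1.31 (without CCR1-KO 65) to 1.30, Ccne2 from -0.099 to 0.55, Birc5 from -0.28 to 0.21 and Cdkn1b from -0.0059 to 0.21, the last 3 lowest without CCR1-KO 67. Birc5 was also -0.11 without WT 62. DESeq2 gave no adjusted p for Bub1. The causes of these changes were not tested. No paired analysis was possible because the groups share no replicate numbers. The low reads of mitotic genes limit what single libraries show.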
